A study of Oryctolagus cuniculus with 4 samples.

Results

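Guidance cues are secreted or membrane-bound proteins first studied for steering growing axons. Semaphorins signal through plexins and neuropilins, ephrins through EPH receptor kinases, netrins through DCC and UNC5 receptors, and SLITs through ROBO receptors. Many of these receptors act on the actin cytoskeleton and on cell adhesion. Outside the nervous system they are known for roles in blood vessel branching, in the sorting of epithelial cells at tissue borders and in the innervation of skin. Members were taken from the expression table by gene symbol, as all semaphorins of classes 3 to 7, plexins, neuropilins, EPH receptors, ephrins, netrins, UNC5 genes, SLITs and ROBOs. 54 of the 13913 genes of the table matched. They comprised 17 semaphorins, 7 plexins and neuropilins, 10 ephrin receptors, 5 ephrins, 9 netrins and UNC5 symbols, and 6 SLITs and ROBOs.

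The symbol rule also took in UNC50 and UNC5CL, which are not known as netrin receptors. UNC50 is a Golgi membrane protein, and UNC5CL is a protein related to UNC5C that takes part in inflammatory signalling. NRP1, SEMA7A, EPHA2 and ROBO1 were not analysed here.

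The libraries were single-cell RNA sequencing libraries, made with the 10x Genomics 3′ droplet method from hypertrophic scar (HS) raised by wounding the ventral ear of female rabbits aged 10 to 12 weeks when bought. All 4 libraries were labelled WT and held cells of the ventral epidermis and dermis. The HS group (n = 2) had no treatment. The drug-loaded MNs group (n = 2) received drug-loaded microneedles (MNs), patches whose gelatin-based tips detach into the tissue and hold a prodrug of a 5-fluorouracil derivative, once a week for 3 weeks, and tissue was taken 1 week after the last patch. No library of drug-free MNs was analysed here, so the needles and the drug cannot be told apart. The labels do not say whether libraries of a group came from separate rabbits, although the study describes its single-cell samples as biologically independent. The p-values measure the spread between these samples.

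The table gave 1 value per gene and library, here called relative expression and with 1 unit standing for 1 part in 1000000 of the total of a library. Depth was unknown, and a gene length correction was not stated, so values are compared between libraries and not between genes. HS replicate 1 stood apart from the other libraries. It lay at -37.2 on the first principal component, which held 43.0% of the variance, and the other 3 libraries lay between 0.947 and 18.3. It also held the lowest of the 4 values in 24 of the 45 tested guidance genes, against 44.5% of all tested genes, and drug-loaded MNs replicate 1 the highest in 16, against 40.1%. Keratinocyte and fibroblast markers were plentiful in every library, with 4 suprabasal markers summing to between 31360 and 52320 units and 6 fibroblast markers to between 22530 and 48620.

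No guidance gene passed the test between drug-loaded MNs and HS. Of the 54 members, 45 had a mean of at least 1 unit over the 4 libraries and were tested, and none of these owed its place to 1 group alone. In limma 0 of 45 had an adjusted p under 0.05, against 0.0428% of all 9348 tested genes (4 genes). At an unadjusted p under 0.05 there were 7 members, all higher in drug-loaded MNs: SLIT3, SEMA3A, SEMA3C, NTN1, EPHA5, EPHA3 and EPHB2. Over all tested genes 7.26% were higher at that level and 1.39% were lower. With values averaged over mixed cells, a change in the number of cells of a type and a change in RNA per cell cannot be told apart.

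On this scale the share of members that were higher lay close to that of all genes. Of the 45 tested members, 30 were higher in drug-loaded MNs and 15 lower, which is 66.7% higher against 64.6% of all tested genes. The median log2 fold change was 0.24 for members and 0.12 for all tested genes. Median ratio scaling moved the median of all genes to -0.011 and that of the members to 0.11, with 27 members higher (60%, against 48.7% of all genes). It left 5 members higher and 1 lower at an unadjusted p under 0.05, against 5.29% and 2.97% of all genes. Under quantile normalization the medians were -0.019 and 0.010, with 24 members higher (53.3%, against 47.5% of all genes), and the counts at that level were 3 higher and 1 lower, against 4.58% and 3.18% of all genes. SEMA3A, SEMA3C and SLIT3 were among the higher genes under both, and PLXNB1 was the lower one.

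**Figure D1:**
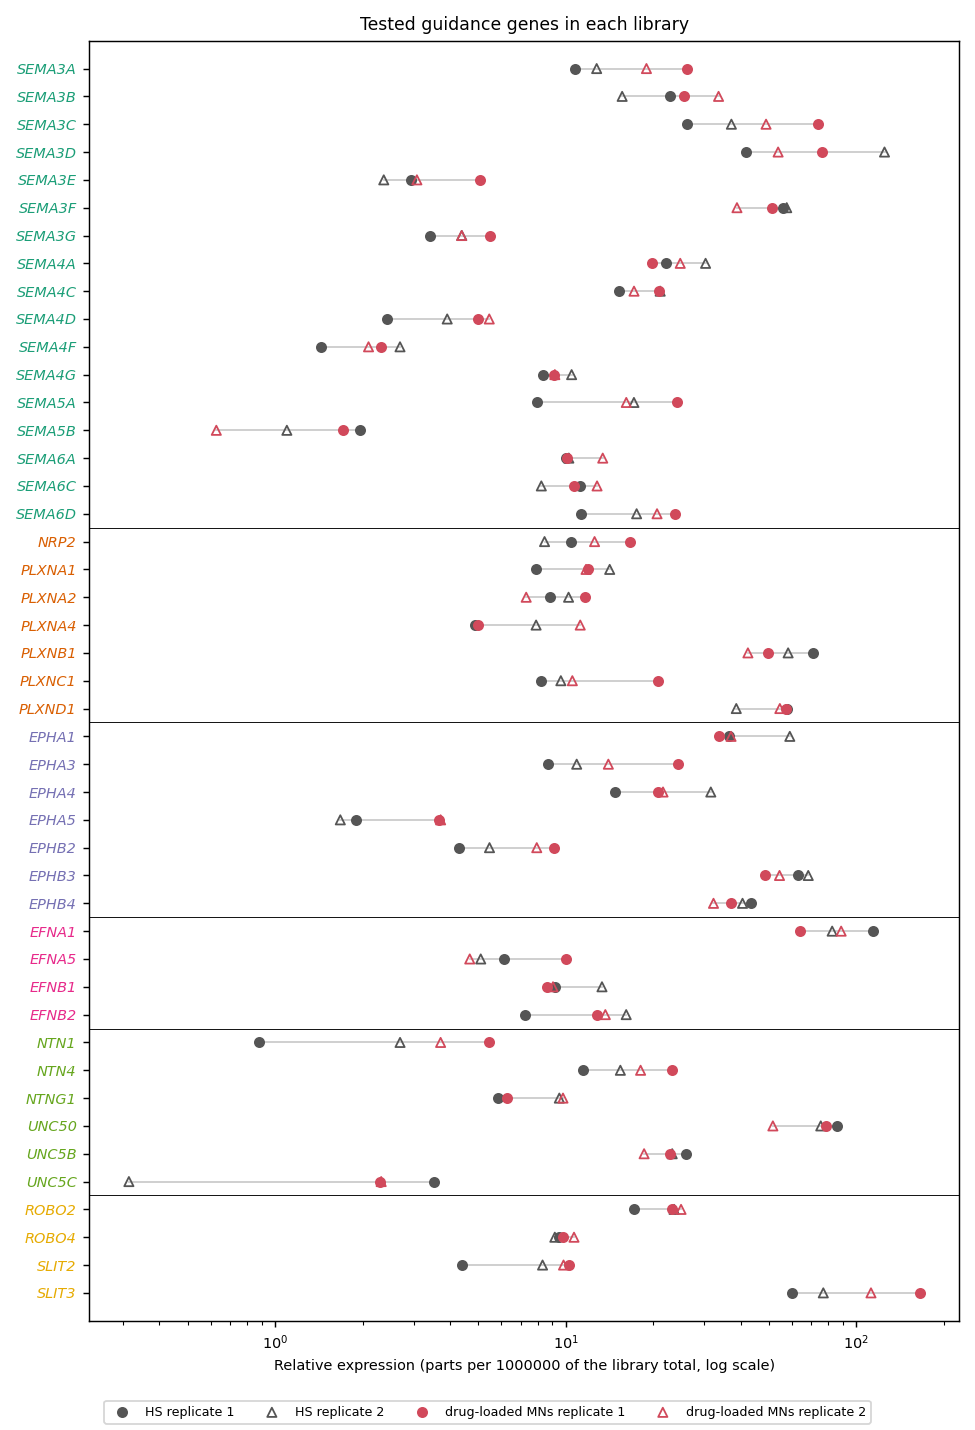
Relative expression of the 45 tested guidance genes in each library, on a log axis in parts per 1000000 of the library total. Grey symbols are HS libraries, red symbols are drug-loaded MNs libraries, circles are replicate 1 and triangles replicate 2, and horizontal rules separate the 6 classes. In 16 genes both red symbols lie to the right of both grey ones, and in 6 genes both lie to the left.

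The groups did not overlap in 22 tested members. In 16 of them both drug-loaded MNs libraries were higher, which is 35.6% against 26.6% of all tested genes, and in 6 both were lower, which is 13.3% against 11.2%. With 2 libraries a side, the smallest two-sided p of an exact permutation test is 0.333, and for this reason single genes were not tested in that way.

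SEMA3A and SEMA3C, both secreted class 3 semaphorins, were the 2 semaphorins at an unadjusted p under 0.05. Class 3 proteins diffuse from the cell that makes them and bind neuropilins, which pair with plexins to signal. SEMA3A, a repellent for axons and for vessel cells, stood at 10.8 and 12.8 units in HS and at 26.2 and 19.0 in drug-loaded MNs. The log2 fold change came to 0.87 (limma SE 0.28, adjusted p 0.417). SEMA3C, which binds both neuropilins, stood at 26.2 and 37.2 units in HS and at 74.0 and 48.9 in drug-loaded MNs, and the log2 fold change came to 0.93 (limma SE 0.30, adjusted p 0.417). In both genes drug-loaded MNs replicate 1 was the highest library and HS replicate 1 the lowest.

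The other class 3 members were less uniform. SEMA3B stood at 22.8 and 15.6 units in HS and at 25.5 and 33.6 in drug-loaded MNs (log2 fold change 0.61). SEMA3E, a ligand that binds PLXND1 without a neuropilin, stood at 2.94 and 2.37 units in HS and at 5.08 and 3.08 in drug-loaded MNs (log2 fold change 0.45). The groups of these genes were next to each other without overlap. SEMA3F, a ligand of NRP2, was the class 3 member that lay lower without overlap, at 55.9 and 57.6 units in HS, against 51.4 and 38.8 in drug-loaded MNs (log2 fold change -0.34). SEMA3D stood at 41.8 and 125 units in HS, and both drug-loaded MNs libraries (76.4 and 53.8) fell between these, so that its log2 fold change of -0.17 changed sign with the library left out (-0.95 without HS replicate 1, 0.61 without HS replicate 2). SEMA3D, SEMA3A and SEMA3E follow each other with 0 other protein-coding genes between them in the RefSeq annotation of the rabbit assembly mOryCun1.1, and the groups overlapped only in SEMA3D of the 3.

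Membrane-bound semaphorins of classes 4, 5 and 6 were mixed. Of 5 class 4 genes, 3 were higher and 2 lower, with a median log2 fold change of 0.075 (SEMA4C was at -0.062 with median ratio scaling and -0.10 with quantile normalization, SEMA4F at -0.15 with the latter). Without HS replicate 1 these genes were at -0.15 and -0.20, and SEMA4A, at -0.21 from all libraries, was at 0.0081 without HS replicate 2. SEMA4D, which is shed from cells and binds PLXNB1, stood at 2.42 and 3.91 units in HS and at 4.997 and 5.46 in drug-loaded MNs, which is 0.60 on the log2 scale (limma SE 0.31, adjusted p 0.696). All 3 class 6 genes were higher, between 0.18 for SEMA6A (-0.014 with quantile normalization, -0.0059 without drug-loaded MNs replicate 2) and 0.61 for SEMA6D on the log2 scale, and of these only SEMA6D had groups that did not overlap. SEMA5A was higher by 0.71 with overlap, because HS replicate 2 (17.2 units) lay above drug-loaded MNs replicate 2 (16.2 units). SEMA5B, the other class 5 gene, had a log2 fold change of -0.25 (0.0012 without HS replicate 1, and 0.12 with drug-loaded MNs replicate 2 left out). Over all 17 semaphorins the median was 0.26, with 12 higher and 5 lower, and it was 0.0054 under quantile normalization.

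Among the receptors of the semaphorins, NRP2 and PLXNC1 lay higher in drug-loaded MNs and PLXNB1 lower. NRP2, a neuropilin found on lymphatic and venous endothelium, stood at 10.4 and 8.46 units in HS and at 16.7 and 12.6 in drug-loaded MNs (log2 fold change 0.58, limma SE 0.28, adjusted p 0.672). PLXNC1, the receptor of SEMA7A, stood at 8.22 and 9.62 units in HS and at 20.9 and 10.5 in drug-loaded MNs (log2 fold change 0.68, limma SE 0.35, adjusted p 0.696). Its difference rested on drug-loaded MNs replicate 1, and it was 0.22 without that library. PLXNB1, the receptor of SEMA4D, stood at 70.8 and 58.3 units in HS and at 49.7 and 42.4 in drug-loaded MNs (log2 fold change -0.48, limma SE 0.24, adjusted p 0.674). Both drug-loaded MNs libraries were below both HS libraries.

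PLXND1, the receptor of SEMA3E and a plexin of endothelium, stood at 57.6 and 38.6 units in HS and at 57.4 and 54.5 in drug-loaded MNs, so the groups overlapped, and its log2 fold change of 0.24 was -0.039 without HS replicate 2. The A plexins, which signal for neuropilins, ran from -0.037 for PLXNA2 to 0.24 for PLXNA4 on the log2 scale, and the groups overlapped in all 3. PLXNA1 went from 0.14 to -0.050 with quantile normalization and to -0.24 without HS replicate 1. PLXNA4 was at -0.060 when HS replicate 1 was left out and at -0.28 when drug-loaded MNs replicate 2 was. For the 7 plexins and neuropilins together the median was 0.24. It was -0.060 without HS replicate 1.

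EPH receptors lay on both sides of 0. These kinases are bound by ephrins on neighbouring cells, A receptors mainly by ephrin-A and B receptors mainly by ephrin-B proteins. EPHA3 stood at 8.71 and 10.9 units in HS and at 24.4 and 14.0 in drug-loaded MNs (log2 fold change 0.86, limma SE 0.33, adjusted p 0.508). EPHA5 stood at 1.89 and 1.68 units in HS and at 3.67 and 3.71 in drug-loaded MNs (log2 fold change 0.75, limma SE 0.29, adjusted p 0.508). EPHA5 had the closest drug-loaded MNs libraries of all 7 genes at an unadjusted p under 0.05, at 3.69 ± 0.0293 units (SD, n = 2). EPHB2 stood at 4.28 and 5.47 units in HS and at 9.09 and 7.95 in drug-loaded MNs (log2 fold change 0.70, limma SE 0.28, adjusted p 0.543).

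The remaining EPH receptors had log2 fold changes below 0. EPHB3, a receptor of epithelial borders, stood at 63.2 and 68.3 units in HS and at 48.7 and 54.4 in drug-loaded MNs (log2 fold change -0.35, limma SE 0.22, adjusted p 0.750). EPHB4, the receptor of EFNB2 on venous endothelium, stood at 43.4 and 40.6 units in HS and at 37.0 and 32.3 in drug-loaded MNs (log2 fold change -0.27). In both genes the groups did not overlap. EPHA1, a receptor known from epidermis, stood at 36.5 and 59.0 units in HS and at 33.8 and 37.1 in drug-loaded MNs (log2 fold change -0.38, and -0.043 without HS replicate 2). EPHA4 had a log2 fold change of -0.031, which was 0.49 without HS replicate 2. Of the 7 tested EPH receptors 3 were higher and 4 lower, with a median of -0.031 that EPHA4 set, and the median was likewise 0.49 without that library.

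No tested ephrin had an unadjusted p under 0.05. EFNA1, an ephrin tied to the membrane by a lipid anchor, stood at 114 and 82.6 units in HS and at 63.8 and 88.7 in drug-loaded MNs (log2 fold change -0.36, limma SE 0.27, adjusted p 0.796). EFNB1, which spans the membrane, stood at 9.16 and 13.3 units in HS and at 8.59 and 9.04 in drug-loaded MNs (log2 fold change -0.30, and -0.049 without HS replicate 2), and it was the one tested ephrin without overlap. EFNB2, an arterial marker and ligand of EPHB4, stood at 7.27 and 16.2 units in HS and at 12.8 and 13.7 in drug-loaded MNs. Both treated libraries thus lay between the HS libraries, and its log2 fold change was -0.27 without HS replicate 1 and 0.79 without HS replicate 2. EFNA5 stood at 6.13 and 5.10 units in HS and at 10.0 and 4.68 in drug-loaded MNs, so its drug-loaded MNs libraries were the highest and the lowest of the 4.

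**Figure D2:**
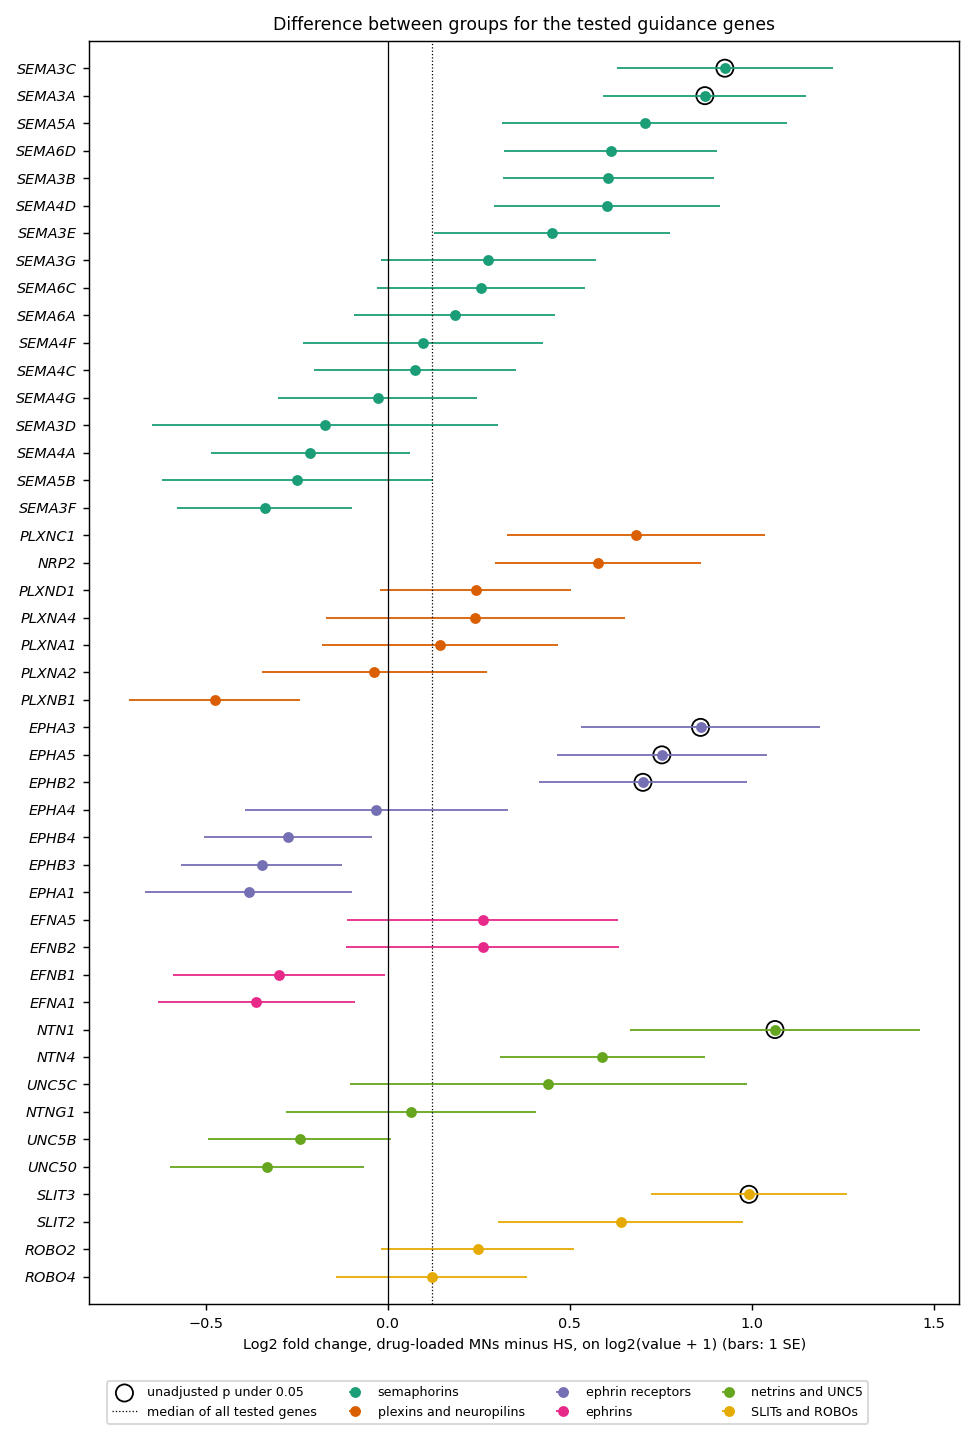
Log2 fold change of each tested guidance gene, drug-loaded MNs minus HS on log2(value + 1), with bars of 1 SE from limma (n = 2 libraries per group). Colours mark the classes, rings the 7 genes at an unadjusted p under 0.05, and the dotted line the median of all tested genes at 0.12, and the values run from -0.48 in PLXNB1 to 1.06 in NTN1.

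NTN1 and NTN4 were higher in drug-loaded MNs. Of the 3 tested UNC5 symbols, the netrin receptor UNC5B was lower and the netrin receptor UNC5C higher. UNC50, not known as a netrin receptor, was lower. NTN1, a laminin-related secreted cue, stood at 0.882 and 2.69 units in HS and at 5.45 and 3.71 in drug-loaded MNs. Its log2 difference of 1.06 (limma SE 0.40, adjusted p 0.490) was the highest of the tested members on this scale. It was 0.58 without HS replicate 1 and 1.55 without HS replicate 2. At these low values it also depended on the pseudocount, at 1.47 with 0.1 and 0.50 with 5. With the latter it lay below SLIT3 (0.95). NTN4, a netrin of basement membranes, stood at 11.4 and 15.4 units in HS and at 23.2 and 18.1 in drug-loaded MNs (log2 fold change 0.59, limma SE 0.28, adjusted p 0.647). NTNG1, which is anchored to the membrane, had a log2 fold change of 0.064 with overlap. Its sign was not stable, at -0.060 under median ratio and -0.16 under quantile scaling, and leaving out HS replicate 1 (-0.24) or drug-loaded MNs replicate 2 (-0.22) turned it too.

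The netrin receptor UNC5B, known from endothelium, stood at 25.9 and 23.3 units in HS and at 22.8 and 18.6 in drug-loaded MNs (log2 fold change -0.24, limma SE 0.25, adjusted p 0.862). These groups did not overlap. UNC5C stood at 3.52 and 0.314 units in HS, with both drug-loaded MNs libraries between them at 2.29 and 2.32. Its log2 fold change of 0.44 was 1.33 without HS replicate 1 and -0.45 without HS replicate 2. UNC50 stood at 85.8 and 75.4 units in HS and at 78.6 and 51.6 in drug-loaded MNs (log2 fold change -0.33), with overlap. Leaving out UNC50 and UNC5CL kept the count of members at an unadjusted p under 0.05 at 7 and took the median of the members from 0.242 to 0.245. This setting was chosen after the data had been seen.

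SLIT3 had the smallest p of all guidance genes. SLIT3, a large secreted ligand of ROBO receptors, stood at 60.1 and 77.0 units in HS and at 165 and 112 in drug-loaded MNs, or 68.5 ± 11.95 against 139 ± 37.6 (SD, n = 2 each). The log2 difference came to 0.99 (limma SE 0.27, adjusted p 0.346), and it ranged from 0.72 without drug-loaded MNs replicate 1 to 1.27 without drug-loaded MNs replicate 2. Both drug-loaded MNs libraries were above both HS libraries. SLIT2, its close relative, stood at 4.40 and 8.33 units in HS and at 10.3 and 9.83 in drug-loaded MNs (log2 fold change 0.64, limma SE 0.34, adjusted p 0.700), and without HS replicate 1 the difference was 0.25.

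ROBO2 and ROBO4 were the tested receptors of SLITs. ROBO4, the ROBO of endothelium, stood at 9.50 and 9.17 units in HS and at 9.81 and 10.7 in drug-loaded MNs, which is 0.12 on the log2 scale (limma SE 0.26, adjusted p 0.938) and became -0.011 with median ratio scaling and -0.089 with quantile normalization. ROBO2 stood at 17.2 and 23.6 units in HS and at 23.3 and 24.9 in drug-loaded MNs (log2 fold change 0.25, and 0.030 without HS replicate 1), with overlap. The 4 tested SLIT and ROBO genes had a median of 0.44 and all were higher, apart from ROBO4 under those scalings. The median was 0.19 without HS replicate 1 and 0.75 without HS replicate 2.

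Ligands and receptors of known pairs can be set side by side. SEMA3C and its receptor NRP2 were both higher without overlap, at 0.93 and 0.58 on the log2 scale. For SEMA4D and PLXNB1 the log2 fold changes were 0.60 and -0.48, for NTN1 and UNC5B 1.06 and -0.24, and for EFNB2 and EPHB4 0.26 and -0.27. SLIT3 and ROBO4 stood at 0.99 and 0.12, and SEMA3E and PLXND1 at 0.45 and 0.24. Whether a ligand and its receptor differed from each other was not tested. Over all tested members, 19 of 26 ligands and 11 of 18 receptors were higher before the changes of sign under another scaling (SEMA4C, SEMA4F, SEMA6A, PLXNA1, NTNG1 and ROBO4) or with 1 library left out. Their median log2 fold changes were 0.26 and 0.19. Among all tested genes 64.6% were higher, with a median of 0.12. Whether ligands differed from receptors as a group was not tested.

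The count of 7 genes depended on single libraries. It was 3 without HS replicate 1 (SLIT3, SEMA3B and UNC5C, with 6.56% of all genes higher at that level), 12 without HS replicate 2 (12.6% of all genes), 0 without drug-loaded MNs replicate 1 (4.13% of all genes) and 7 without drug-loaded MNs replicate 2 (6.91% of all genes). Without HS replicate 1, EPHA1 and SEMA3D were lower at that level, against 2.19% of all genes, and without HS replicate 2 PLXNB1 was, against 2.41%. Each of the 7 genes kept its direction in every one of the 14 alternatives that gave a value for it (EPHA5 and NTN1 had none with a minimum mean of 5). The groups did not overlap in any of the 7, so of these alternatives only another scaling could have turned a sign.

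**Figure D3:**
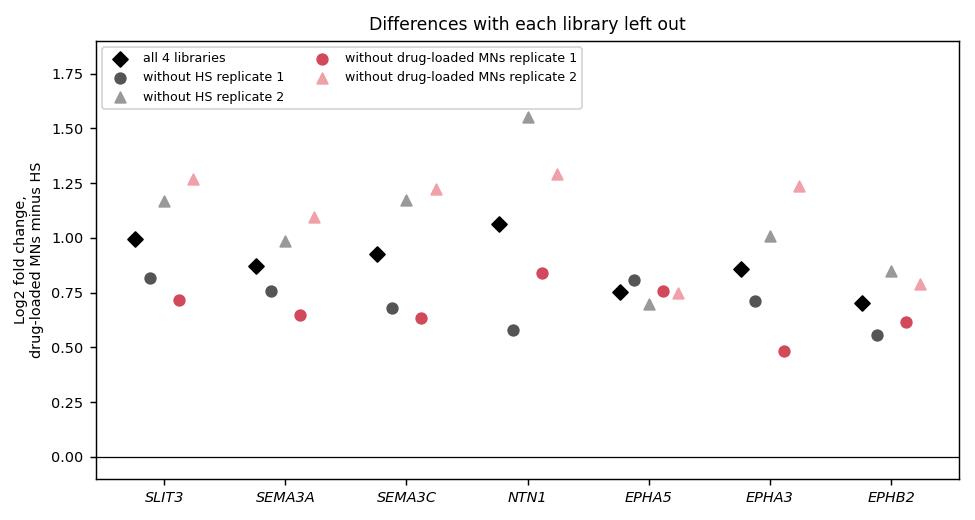
Log2 fold change of the 7 guidance genes at an unadjusted p under 0.05, from all 4 libraries (black diamonds) and with 1 library left out (grey for an HS library, red for a drug-loaded MNs library). All points lie above 0, which follows from groups that do not overlap in these 7 genes. EPHA5 spans 0.70 to 0.81 and NTN1 spans 0.58 to 1.55.

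Markers of fibroblasts, lymphatic endothelium and macrophages also stood higher in drug-loaded MNs. In limma 0 of their 6, 3 and 6 tested markers passed the threshold, and each of them was higher at an unadjusted p under 0.05, against 7.26% of all genes. Each of the 6 fibroblast markers was higher after treatment, by 0.58 (LUM) to 1.46 (COL3A1) on the log2 scale with a median of 1.12, and their summed level ran from 22530 to 23000 units in HS and from 44680 to 48620 in drug-loaded MNs. The 3 lymphatic endothelial markers (CCL21, LYVE1 and PROX1) had a median of 1.22, and their sum ran from 54.3 to 66.9 units in HS and from 130 to 227 in drug-loaded MNs. The 6 macrophage markers had a median of 1.28, with sums of 77.7 to 95.3 units in HS, against 194 to 195 in drug-loaded MNs. The order of the drug-loaded MNs libraries varied between single markers. COL3A1, DPT, DCN, CSF1R, C1QB and C1QC were higher in replicate 1, and LUM, COL1A1, COL1A2, C1QA, CD163 and MRC1 in replicate 2. Relative to the HS mean, the fibroblast median (1.05 and 1.11) and the macrophage median (1.17 and 1.40) were higher in drug-loaded MNs replicate 2 than in replicate 1. The endothelial (0.13 and 0.30) and suprabasal keratinocyte (-0.27 and -0.026) medians were too. The lymphatic endothelial median (1.465 and 1.07) was higher in replicate 1, although PROX1 was higher in replicate 2 (2.66 and 4.99 units). The mural (0.72 and 0.42), Schwann (1.015 and 0.22) and basal keratinocyte (0.29 and -0.57) medians were also higher in replicate 1. So were SLIT3 (1.27 and 0.72), SEMA3C (1.22 and 0.63), EPHA3 (1.24 and 0.48), SEMA3A (1.095 and 0.65), EPHB2 (0.79 and 0.62) and NTN1 (1.29 and 0.84). EPHA5 was near equal in both (0.75 and 0.76). PDGFRA, FLT4, PDPN and CD68 were not analysed here. The part of these cells in the differences of the guidance genes was not tested.

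Other marker lists had smaller medians, and some of their genes were also higher at an unadjusted p under 0.05 in limma. These were 2 mural markers (PDGFRB and ACTA2), CDH5 (endothelial), KIT (mast cell), NCAM1 (Schwann) and CD2 (T cell), against 7.26% of all genes. No keratinocyte marker was at that level. The 6 endothelial markers had a median of 0.22, with 4 higher and 2 lower and sums of 196 units in both HS libraries and 151 to 200 in drug-loaded MNs. The 5 basal and 4 suprabasal keratinocyte markers had medians of -0.18 and -0.062, with sums that overlapped between groups (5718 to 8265 against 4040 to 7678 units, and 36820 to 52320 against 31360 to 41240 units). Medians were 0.55 for 4 mural markers and 0.68 for 6 Schwann markers, and the latter was -0.068 without HS replicate 1. Schwann sums overlapped (134 to 458 units in HS, 200 to 328 in drug-loaded MNs), as did those of the 4 mural markers (373 to 686 and 665 to 856 units) and of 3 mast cell markers (36.5 to 101 and 58.2 to 101 units, median 0.31). Several of these medians hung on 1 library. Leaving out HS replicate 1 put the endothelial median at -0.0043, the mural at 0.13, the suprabasal at -0.50 and the mast cell one at 1.02. With HS replicate 2 left out instead, the same medians were 0.45, 1.06, 0.20 and -0.65. With drug-loaded MNs replicate 2 left out, the basal median was 0.29 and the mast cell median -0.23, and with drug-loaded MNs replicate 1 left out the basal one was -0.57. Of the 6 genes of the T cell list only CD2 was analysed here. It stood at 0.559 and 1.24 units in HS, against 3.73 and 2.31 in drug-loaded MNs (log2 fold change 1.08, limma SE 0.35, adjusted p 0.417).

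**Figure D4:**
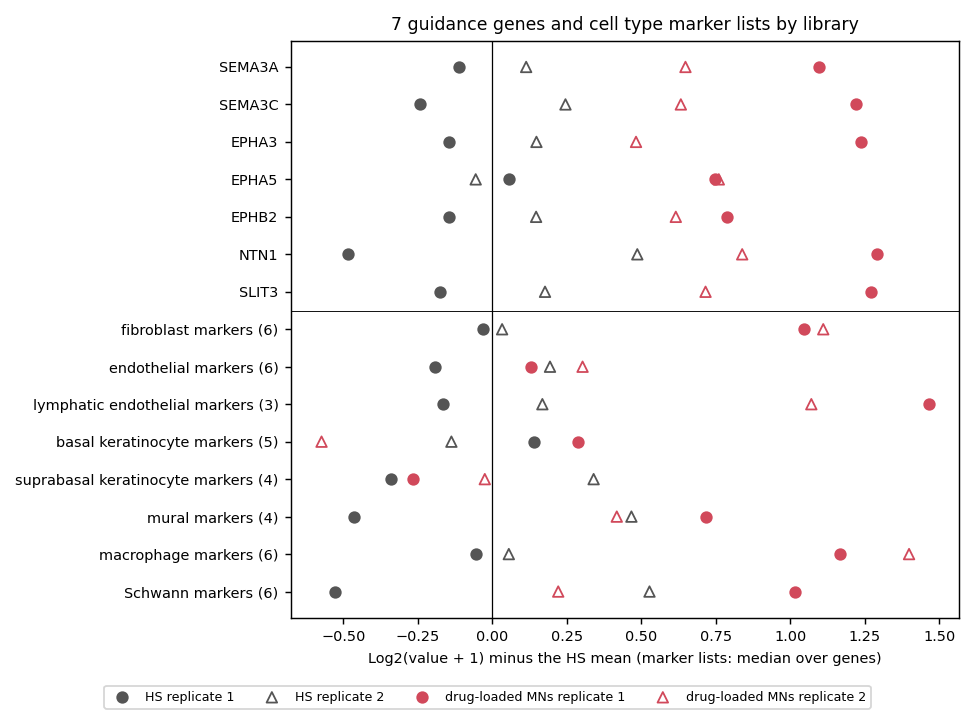
Log2(value + 1) in each library minus the HS mean, for the 7 guidance genes at an unadjusted p under 0.05 and, below the line, for cell type marker lists (median over the number of genes in brackets). The 2 red fibroblast points lie at 1.05 and 1.11, while the red basal keratinocyte points lie on either side of 0, at 0.29 and -0.57.

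Partners of the guidance receptors were looked at from 2 lists. In limma 0 of 25 tested partners passed (co-receptors and adhesion partners 11, kinases, adaptors and cytoskeletal effectors 14), against 0.0428% of all tested genes. At an unadjusted p under 0.05, 4 were higher and 0 lower, against 7.26% and 1.39%. Median log2 fold changes were 0.37 and 0.15 for the 2 lists, against 0.12 for all tested genes. That of the co-receptors was 0.18 without HS replicate 1 and 0.59 without HS replicate 2. That of the kinases, adaptors and effectors was -0.065 without HS replicate 1 and 0.36 without HS replicate 2.

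Among co-receptors, TREM2, a receptor of myeloid cells that pairs with plexin A1, stood at 8.65 and 6.45 units in HS and at 15.8 and 25.1 in drug-loaded MNs (log2 fold change 1.31, limma SE 0.32, adjusted p 0.320). FLRT2, an adhesion protein that binds UNC5 receptors, stood at 23.2 and 24.4 units in HS and at 38.9 and 35.8 in drug-loaded MNs (log2 fold change 0.63, limma SE 0.23, adjusted p 0.485). ITGA1, an integrin chain that binds collagen, had a log2 fold change of 0.65. In all 3 genes the groups did not overlap.

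Of the intracellular partners, DPYSL2, the collapsin response mediator that carries the SEMA3A signal to microtubules, stood at 33.4 and 35.6 units in HS and at 63.3 and 52.5 in drug-loaded MNs (log2 fold change 0.73, limma SE 0.23, adjusted p 0.417). FYN, a SRC family kinase downstream of SEMA3A and EPHA receptors, stood at 21.0 and 19.2 units in HS and at 35.5 and 31.4 in drug-loaded MNs (log2 fold change 0.71, limma SE 0.24, adjusted p 0.437). DPYSL3, a relative of DPYSL2, had a log2 fold change of 0.46.

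The 16 tested members not chosen by the naming rule had log2 fold changes between -0.25 and 0.71, with 11 higher and 5 lower, and the groups did not overlap in 1 of them. The 9 members under the minimum stayed at or below 1.62 units in every library. EPHA8 was listed at 0 in all 4 libraries, and UNC5A in 3 of them. EPHA7 stood at 0.592 and 0.371 units in HS and at 0.892 and 1.07 in drug-loaded MNs, and SLIT1, the third SLIT, at 0.502 and 1.62 units in HS and at 0.512 and 0.449 in drug-loaded MNs. The others were EPHB1, EFNB3, UNC5CL, UNC5D and ROBO3. Without the minimum, 53 members were tested, and 5 were higher at an unadjusted p under 0.05 in limma, against 6.59% of all genes. These were EPHA7, EPHA5, SEMA3A, SEMA3C and SLIT3, so EPHA3, EPHB2 and NTN1 were not at that level in this setting.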

How the data were processed

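Per the labels and the methods of the study, the authors made 10x Genomics 3′ libraries, counted unique molecular identifiers with Cell Ranger (version 2.1.1 in the submitters' processing notes), corrected technical bias between samples and used Seurat. The notes name the mouse build mm10, although the gene identifiers are those of rabbit. The deposited table is named for FPKM, but each column of this signal summed to 10000 over 13913 genes. How cells were combined into 1 value per library, and whether the values had been corrected, was not stated. Doublets could not be called. Only 18.6% to 21.7% of low values (885 to 1083 per library, within 0.1 of a whole multiple of the smallest) were whole, so reads were not recovered, no count model was run, and depth was unknown.

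Values were rescaled to 1000000 per library in place of use as FPKM. A minimum mean of 1 unit left 9348 genes. Log2(value + 1) was fitted with lmFit and trended eBayes in limma 3.58.1 under R 4.3.3, without covariates, two-sided, with Benjamini-Hochberg adjustment over all tested genes and a threshold of 0.05. Fold changes on this scale understate changes of low genes. The fit was also run on simulated data with independent normal noise. Changes were put only into genes above a set mean level, and no library was made to stand apart. That run therefore does not cover low genes or reliance on 1 library.

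Groups came from sample titles. Members and lists were chosen with earlier results of these data known. Genes were named as the 3 smallest p and the 2 highest mean values per class, both sides of known ligand and receptor pairs, and the 3 smallest p per partner list. All 54 members matched 1 gene of the RefSeq list of mOryCun1.1, used only for neighbours. Lists were described by counts and medians, and 1 list of intracellular partners is not reported here. Alternatives were other scalings, pseudocounts, filters and priors, the replicate number as a block, and leaving out each library.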

Additional observations from a re-analysis of the deposited data

How the results depend on the processing

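The number of libraries limited the precision, and what depth limits could not be measured. Of 29 named guidance genes, 24 kept their direction in every one of the 14 alternatives that gave a value for them. The other filters and priors and the block leave a fold change as it is and could not turn a sign. Leaving out a library could not do so in genes whose groups did not overlap. Over all genes the 4 calls became 0 without a filter, with a pseudocount of 5, with a total without abundant genes and with median ratio or quantile scaling, and 1 with eBayes without trend; with 1 library left out it ranged from 0 to 75. The number of guidance genes past the threshold was 0 in each of these. With the replicate number as a block it was 1 (SLIT3, limma adjusted p 0.0231; 0.346 without the block) and 241 over all genes. Same-numbered libraries shared only a number: the correlation of their deviations within groups was 0.22, and with 2 pairs this does not show that they are paired. The count of guidance genes higher at an unadjusted p under 0.05 (7) was 3 under quantile normalization (4.58% of all genes) and 4 with a minimum mean of 5 (6.79% of all genes), where 37 members were tested, and ranged from 0 to 12 with 1 library left out (4.13% to 12.6% of all genes). The count lower (0) was 1 (PLXNB1) with either median ratio or quantile scaling (2.97% and 3.18% of all genes), and ranged from 0 to 2 with 1 library left out. The median of the members ranged from 0.13 to 0.37 with 1 library left out. ROBO4 became -0.011 with median ratio scaling and -0.089 with quantile normalization. With 1 library left out, SEMA3D ranged from -0.95 to 0.61, PLXND1 from -0.039 to 0.52, EFNA5 from -0.22 to 0.74 and EFNB2 from -0.27 to 0.79. The cause was not tested for these. These fits assume that a single remaining library varies as those of the other group do. Genes under a minimum mean of 5 had no value in that setting.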
